A study of Mus musculus with 6 samples.

Results

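Keratins form the intermediate filaments of epithelial cells. Of the genes on the array, 52 carry the symbol Krt followed by a number and were taken as the keratin family, out of all mouse genes and transcripts measured in the same tumours. Keratin-associated protein genes (Krtap) were not included. The 52 genes were read by 68 probes. Of these genes, 42 were well above background throughout the 3 arrays of 1 or both genotypes and were tested, among 19742 features tested in all, and 10 were not. The probe named Krt83 on the array belongs to the gene now called Krt87, which is the name used here. A further 3 probes that the current RefSeq table assigns to keratins carry clone names on the array and were not taken.

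The tumours came from the backs of male mice painted with a single dose of 195 nmol of DMBA, a carcinogen that mutates keratinocytes, and from the next week with 16 nmol of TPA, a tumour promoter, 2 times a week until week 22. Of the arrays, 3 held RNA of tumours labelled P2ry6-/- (labelled knockout, KO) and 3 held RNA of tumours labelled P2ry6+/+ (labelled wild-type, WT). P2ry6 encodes a receptor for uridine diphosphate, and the labels state neither which part of the gene was removed nor the strain and age of the mice. The labels do not say whether the tumours of a genotype came from separate mice, so each p-value measures the spread between these samples, which may in part be technical.

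Keratins pair as a type I and a type II chain, and each epithelial layer or structure has its own pairs. Basal cells of the epidermis make Krt5 with Krt14, and cells that leave the basal layer switch to Krt1 with Krt10. Wounded, hyperproliferative and tumour epidermis adds Krt6a, Krt6b, Krt16 and Krt17. Simple epithelia use Krt8 with Krt18, the inner root sheath of the hair follicle uses Krt25 to Krt28 with Krt71 to Krt74, and the hair shaft uses the hair keratins. In mouse skin tumours Krt8, Krt18 and the mucosal keratin Krt13 are known as markers of progression.

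All levels below are log2 signals relative to the 75th percentile of the same array, so 0 lies at that percentile, and each difference is labelled KO minus labelled WT. Levels of different genes come from different probes and are not compared. P2ry6 itself read 0.45 to 0.70 in the labelled KO tumours, against -0.21 to 0.38 in the labelled WT tumours, at its brighter probe (limma adjusted p = 0.450). The library labels therefore have no check from a loss of P2ry6 signal, and directions follow the labels. On each array 54.2% to 59.4% of the non-control spots were well above background, and with 3 arrays per genotype their number limits the precision. Keratinocyte markers other than keratins (10 of 10 above background on all 6 arrays) averaged 5.17 to 5.50 in the labelled KO tumours and 4.997 to 5.30 in the labelled WT tumours.

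Of the basal and stress keratins, Krt5, Krt14, Krt6a, Krt6b, Krt16 and Krt17 differed little between tumours. Some other epidermal keratins varied more. Krt15, Krt1 and Krt77 ranged over 2.95, 2.54 and 4.26 log2 units across the 6 tumours, whereas Krt2 ranged over 0.67. As classes, the keratins of the hair follicle differed most. Of the tested genes, 5 of 5 inner root sheath and 10 of 11 hair shaft keratins had lower means in the labelled KO tumours, beside 47.9% of all features. Differences reached -6.56 on the log2 scale (Krt71), with wide variation inside each genotype. However, 4 of these 5 and 5 of these 11 passed the filter through the labelled WT tumours alone, which by itself favours a lower labelled KO mean. Krt10, Krt1 and Krt2, of the suprabasal layers, lay slightly higher in the labelled KO tumours. Krt8, Krt18 and Krt13 varied between single tumours of both genotypes. In bulk tumours fewer cells of a type and less RNA per cell cannot be told apart. The fit across all features called 0 of the 42 tested keratins at a limma adjusted p under 0.05, where 0.162% of all 19742 features were called. The smallest adjusted p of a keratin was 0.177, for Krt77.

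At an unadjusted p under 0.05 with at least a 2-fold difference, 11 of the 42 tested keratins passed (26.2%), all of them lower in the labelled KO tumours. Over all features 4.43% passed this rule, 2.39% lower and 2.05% higher. The 11 are Krt25, Krt27, Krt28, Krt71, Krt33a, Krt33b, Krt35, Krt36, Krt12, Krt79 and Krt77. They are not independent, and 9 of them passed the filter through only the genotype where they were brighter. The count was 6 with normexp background correction and 5 without labelled KO replicate 1. Among the 27 keratins well above background on all 6 arrays, 2 passed the rule (Krt36 and Krt79). The genotypes did not overlap for 11 keratins, 6 lower and 5 higher in the labelled KO tumours, or 26.2% of those tested. Over all features the genotypes did not overlap for 19.5%, with 7.35% lower and 12.1% higher.

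**Figure D1:**
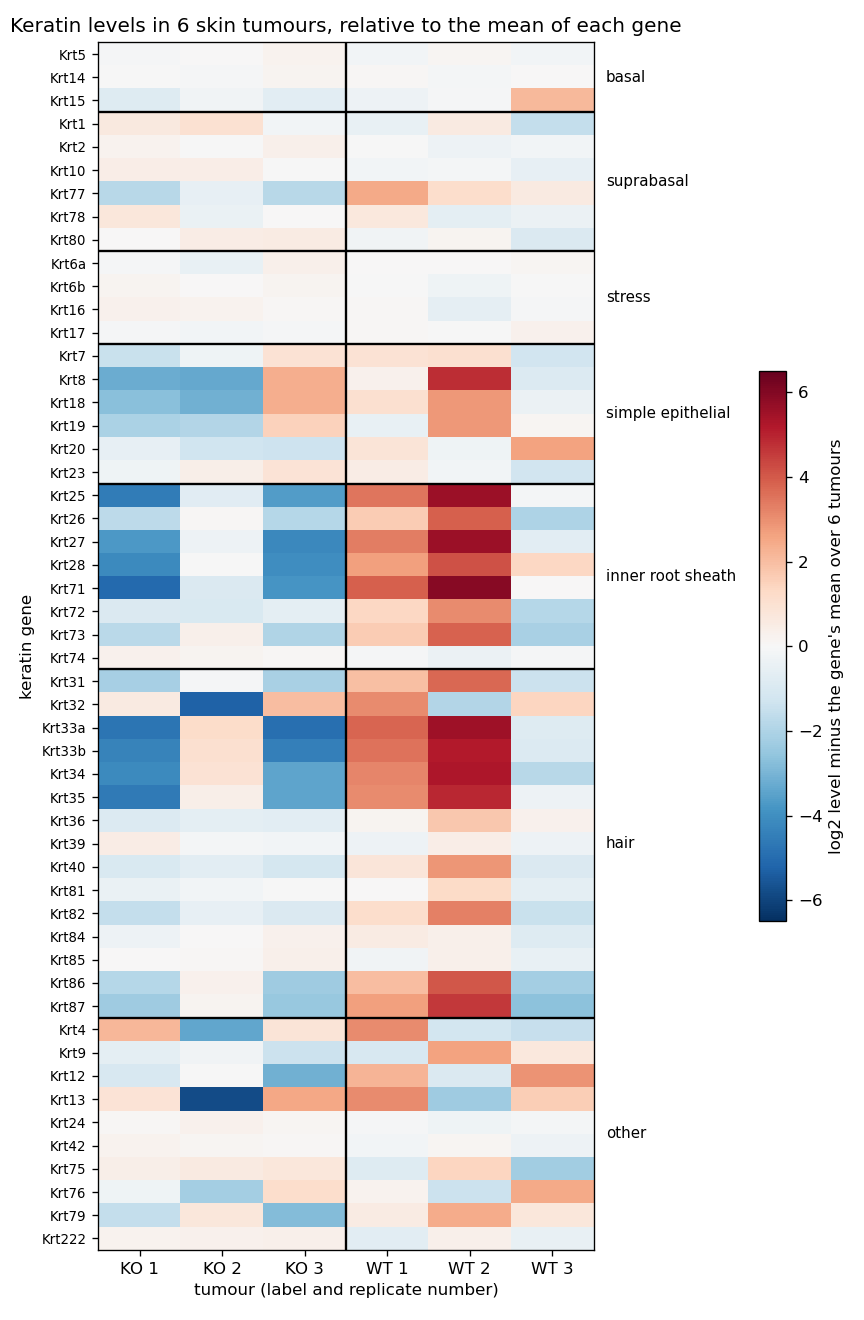
Level of each of the 52 keratin genes (rows, grouped by class) in the 6 tumours (columns, labelled KO left and labelled WT right), as the log2 level minus the mean of the same gene over the 6 tumours. The inner root sheath keratins other than Krt74, and most hair keratins, are above their mean (red) in labelled WT replicates 1 and 2, while basal and stress keratins, apart from Krt15, are close to white in every tumour.

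Basal keratins came first. Krt14, the type I chain of basal keratinocytes, read 9.72, 9.68 and 9.96 in labelled KO replicates 1, 2 and 3, against 9.83, 9.63 and 9.82 in labelled WT replicates 1, 2 and 3. The genotypes overlapped, and the difference was 0.03 (SE 0.16, limma adjusted p = 0.955). This value has no stable sign: it was negative under normexp background correction, quantile normalization, median scaling and the series value table. Krt5, its type II partner, averaged 9.48 ± 0.13 in the labelled KO tumours and 9.34 ± 0.18 in the labelled WT tumours (SD, n = 3 each), which differ by 0.14 (SE 0.17, limma adjusted p = 0.769). Krt15, a keratin of basal cells and of the hair follicle bulge, read 3.27, 3.86 and 3.39 in the labelled KO tumours, against 3.78, 4.04 and 6.22 in the labelled WT tumours. Labelled WT replicate 3 stood above the other 5 tumours, and the difference of -1.17 (SE 0.63, limma adjusted p = 0.484) was -0.40 without it.

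Of the 6 suprabasal keratins, all tested, 5 were higher and 1 lower in the labelled KO tumours, with a median difference of 0.47, beside 0.017 over all features. Krt10, the type I chain of the spinous layer, read 9.34, 9.34 and 8.86 in labelled KO replicates 1, 2 and 3, against 8.71, 8.78 and 8.38 in labelled WT replicates 1, 2 and 3. Every labelled KO tumour was above every labelled WT tumour, by a small margin, and the difference of 0.56 (SE 0.20) did not pass (limma adjusted p = 0.331). Krt1, its type II partner, read 8.40, 8.79 and 7.62 in the labelled KO tumours, against 7.29, 8.35 and 6.25 in the labelled WT tumours. The genotypes overlapped through labelled WT replicate 2, and the difference was 0.97 (SE 0.56, limma adjusted p = 0.514). In both genotypes replicate 3 had the lowest Krt1 and Krt10. The Krt1 difference was 0.44 without labelled WT replicate 3 and 1.49 without labelled WT replicate 2.

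Krt2, a keratin of the upper epidermis, read -2.05, -2.30 and -1.97 in the labelled KO tumours, against -2.34, -2.64 and -2.46 in the labelled WT tumours. The groups did not overlap, with a difference of 0.38 (SE 0.17, limma adjusted p = 0.399). Krt80, a type II keratin found near desmosomes in differentiating epithelia, differed by 0.67 (SE 0.31, limma adjusted p = 0.419), and its dimmer probes differed by 0.62 and 0.15. Krt78 differed by 0.24 with overlapping groups. Krt77, which is made in suprabasal epidermal cells, went the other way. It read -5.93, -4.70 and -5.96 in the labelled KO tumours, none of them well above background, against -1.70, -3.01 and -3.55 in the labelled WT tumours. The measured difference was -2.77 (SE 0.55, limma adjusted p = 0.177), and Krt77 was at least 2.17-fold lower by the bound. A bound of this kind sets the mean of the brighter genotype against, on each dim array, the higher of the probe's own value and the lowest signal well above background. With normexp background correction the measured Krt77 difference of -2.77 shrank to -0.53.

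The 4 stress keratins were tested in full, 2 higher and 2 lower, with a median of 0.05. Krt16, a type I stress keratin, read 10.06, 9.99 and 9.87 in the labelled KO tumours, against 9.85, 9.20 and 9.67 in the labelled WT tumours. The groups did not overlap (difference 0.40, SE 0.20, limma adjusted p = 0.455), and 0.21 remained without labelled WT replicate 2, the lowest array. The other Krt16 probe differed by -0.01 with overlapping groups, so the 2 probes do not give the same difference. Krt6b differed by 0.23 (SE 0.15, limma adjusted p = 0.567) without overlap. Krt6a, its close paralog, differed by -0.13 (SE 0.22, limma adjusted p = 0.844) with overlap, and its difference was 0.07 without labelled KO replicate 2. Krt17 averaged 8.94 ± 0.08 in the labelled KO tumours and 9.16 ± 0.16 in the labelled WT tumours (SD, n = 3 each), which differ by -0.22 (SE 0.15, limma adjusted p = 0.587) with no overlap. The range of these 4 genes over all 6 tumours was 0.48 to 0.86, and none of the spots was saturated.

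**Figure D2:**
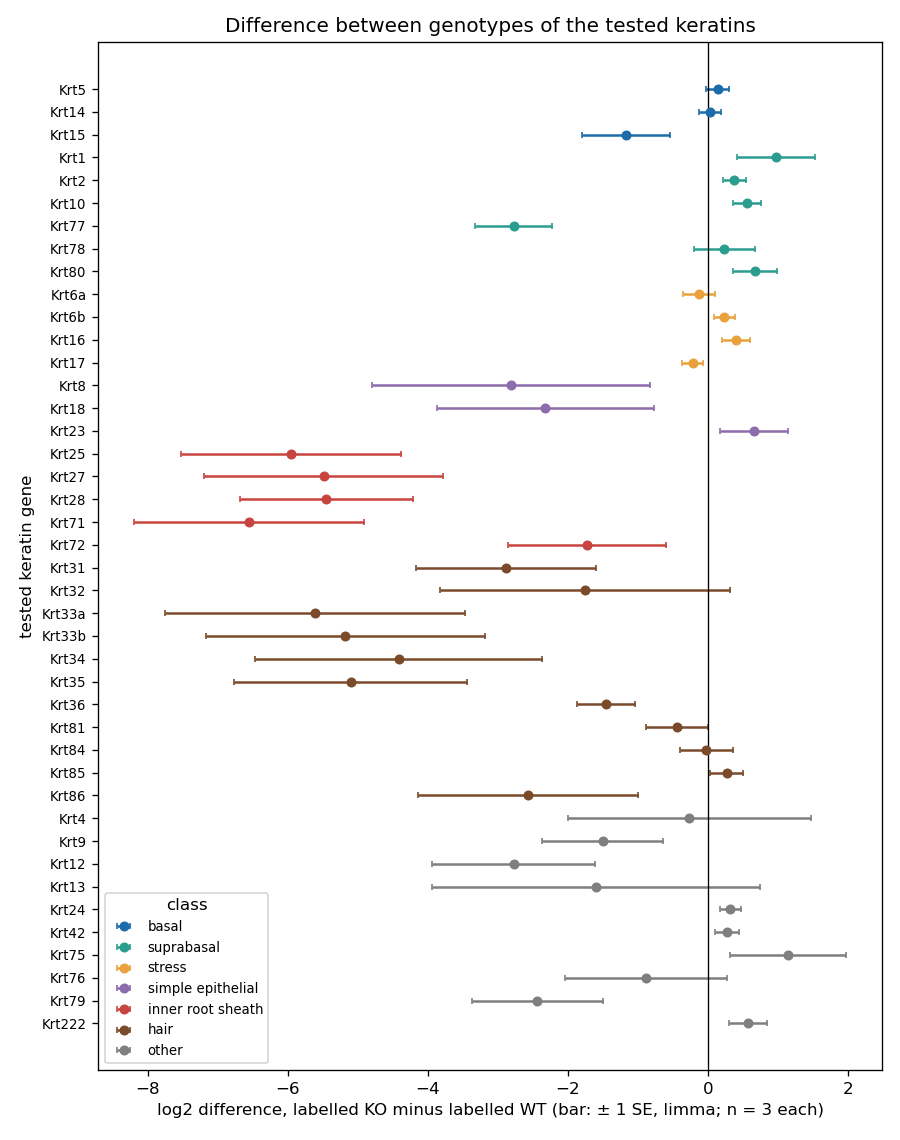
Difference of each tested keratin, labelled KO minus labelled WT on the log2 scale (points) with 1 standard error on either side (bars; limma, 3 tumours per genotype), coloured by class. Stress keratins and Krt5 and Krt14 lie within 0.40 of 0, and the 5 inner root sheath keratins lie between -6.56 and -1.73.

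Of the simple epithelial keratins, Krt8, Krt18 and Krt19 separated single tumours rather than genotypes. Krt18, a type I keratin of simple epithelia, read -1.44, -1.84 and 3.65 in labelled KO replicates 1, 2 and 3, against 2.35, 4.09 and 0.89 in labelled WT replicates 1, 2 and 3. Labelled KO replicate 3 lay inside the labelled WT range, and the other labelled KO tumours lay below it. The difference was -2.32 (SE 1.55, limma adjusted p = 0.571) and reached -4.09 without labelled KO replicate 3. Krt8, the type II partner of Krt18, read -5.75, -5.81 and -0.16 in the labelled KO tumours, against -2.21, 2.31 and -3.41 in the labelled WT tumours, and was above background in 1 labelled KO tumour, replicate 3. Its difference was -2.81 (SE 1.99, limma adjusted p = 0.595). Krt8 and Krt18 shared their highest tumours, labelled KO replicate 3 and labelled WT replicate 2. The second Krt8 probe differed by -2.17.

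Krt19, a keratin of simple epithelia and of the follicle bulge, was above background in 1 labelled KO tumour and 2 labelled WT tumours and was not tested. It read -5.64, -5.50 and -2.11 in the labelled KO tumours, against -4.08, -0.75 and -3.46 in the labelled WT tumours. Its highest labelled KO tumour was again replicate 3 and its highest labelled WT tumour replicate 2. Krt7 and Krt20, of simple and gut epithelia, were above background in 1 and 0 labelled KO tumours and in 2 and 1 labelled WT tumours. Neither was tested. Krt20 read lower in every labelled KO tumour than in any labelled WT tumour, mostly below background. Krt23 was bright in every tumour and differed by 0.66 (SE 0.48, limma adjusted p = 0.611). Of the 6 simple epithelial keratins 3 were tested, with a median of -2.32. The median was -4.09 without labelled KO replicate 3, -1.54 and -1.34 without labelled KO replicates 1 and 2, and -1.10 without labelled WT replicate 2.

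The inner root sheath keratins had the most negative median difference of the 7 classes, and it rests partly on labelled KO values below background. Of 8 genes 5 were tested and all 5 were lower in the labelled KO tumours, with a median of -5.49. None of the 5 was above background on all 6 arrays, so 4 entered through the labelled WT tumours and 1, Krt72, through the labelled KO tumours. The filter by itself favours a difference in such genes. Without a filter, over all 8 genes, the median was -3.89, and with normexp background correction it was -3.69.

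Krt71, the main type II chain of the inner root sheath, read -3.74, 0.39 and -2.51 in labelled KO replicates 1, 2 and 3, against 5.19, 7.25 and 1.37 in labelled WT replicates 1, 2 and 3. The groups did not overlap, although labelled KO replicate 2 came within 1 unit of labelled WT replicate 3, and the difference was -6.56 (SE 1.64, limma adjusted p = 0.228). Krt25, a type I partner, read -4.78, -0.97 and -3.82 in the labelled KO tumours, against 3.28, 5.36 and -0.34 in the labelled WT tumours, again without overlap (difference -5.96, SE 1.57, limma adjusted p = 0.236). Krt28 read -4.74, -0.60 and -4.63 in the labelled KO tumours, against 2.08, 3.56 and 0.74 in the labelled WT tumours. This was the smallest p of the class (difference -5.45, SE 1.24, limma adjusted p = 0.201), and a second Krt28 probe gave -5.72.

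Krt27 differed by -5.49 (SE 1.71, limma adjusted p = 0.283), with labelled KO replicate 2 at -1.15 just above labelled WT replicate 3 at -1.51. Krt25, Krt27 and Krt28 were each above background in 1 labelled KO tumour. Krt72 differed by -1.73 (SE 1.13, limma adjusted p = 0.560) with overlap. Krt26 and Krt73 were above background in 0 labelled KO and 2 labelled WT tumours. Neither was tested, and in each the genotypes overlapped, with labelled WT replicate 3 the lowest of the 6 tumours (-6.38 for Krt26 and -6.14 for Krt73). Krt74 was not well above background on any array.

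The tumours kept a common order across these genes. Labelled WT replicate 2 was highest, replicate 1 second and replicate 3 lowest in 5 of 5 tested inner root sheath keratins and in 8 of 11 tested hair keratins, and 18.7% of all features had this order. That order together with labelled KO replicate 2 as the highest labelled KO tumour held for 4 of 5 and 6 of 11, beside 7.76% of all features. The members share tumours and RNA, so these counts describe the 6 tumours.

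**Figure D3:**
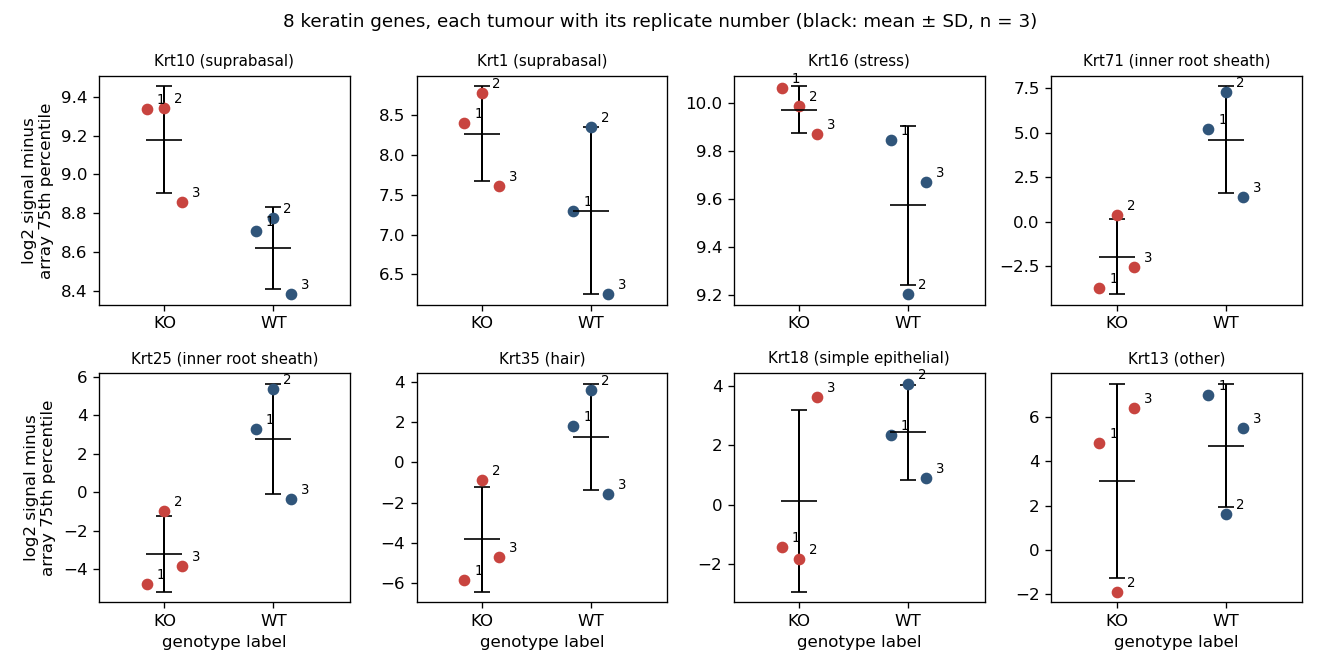
Level of 8 keratin genes in each tumour (points with replicate numbers; labelled KO red and left, labelled WT blue and right; black marks are mean ± SD, n = 3), as log2 signal minus the array's 75th percentile. Each panel has its own axis. Labelled KO replicate 2 is the highest labelled KO tumour for Krt71, Krt25 and Krt35 and the lowest for Krt13, and labelled KO replicate 3 is the highest for Krt18.

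Promoter sequence was available from RefSeq (build GRCm38.p6) for 35 of the 52 keratin genes. The 250 bases before each start were searched for 3 short motifs. The TATA box was searched as TATAAA on the strand of the gene only. The core bound by LEF1 and TCF factors was searched as CTTTGA on both strands. The site of GATA factors was searched as AGATAA, also on both strands. LEF1 acts in hair shaft precursors and GATA3 in the inner root sheath, which is why these were searched. Matches of different motifs overlapped in 1 keratin promoter, that of Krt76. Shown here are 2 inner root sheath and 2 hair shaft promoters whose genes had low levels in the same labelled KO tumours, with motif matches in capitals, 5′ to 3′ on the strand of the gene.
Krt71 (chr15:101743098-101743347, minus strand): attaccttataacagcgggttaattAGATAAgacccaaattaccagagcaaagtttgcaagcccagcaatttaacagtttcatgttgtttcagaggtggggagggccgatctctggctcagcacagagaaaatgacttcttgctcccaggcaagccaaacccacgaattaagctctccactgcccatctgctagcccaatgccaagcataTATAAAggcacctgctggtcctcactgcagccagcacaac
Krt25 (chr11:99322952-99323201, minus strand): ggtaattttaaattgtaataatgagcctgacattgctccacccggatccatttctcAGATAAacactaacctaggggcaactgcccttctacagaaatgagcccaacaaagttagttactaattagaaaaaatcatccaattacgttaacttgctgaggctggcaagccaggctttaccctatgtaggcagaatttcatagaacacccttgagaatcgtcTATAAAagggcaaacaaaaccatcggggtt
Krt31 (chr11:100050552-100050801, minus strand): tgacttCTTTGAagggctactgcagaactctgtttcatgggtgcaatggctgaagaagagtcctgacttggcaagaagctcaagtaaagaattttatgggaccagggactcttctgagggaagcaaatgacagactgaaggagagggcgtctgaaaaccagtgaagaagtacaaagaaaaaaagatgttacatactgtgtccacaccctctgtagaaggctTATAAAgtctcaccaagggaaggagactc
Krt34 (chr11:100041555-100041804, minus strand): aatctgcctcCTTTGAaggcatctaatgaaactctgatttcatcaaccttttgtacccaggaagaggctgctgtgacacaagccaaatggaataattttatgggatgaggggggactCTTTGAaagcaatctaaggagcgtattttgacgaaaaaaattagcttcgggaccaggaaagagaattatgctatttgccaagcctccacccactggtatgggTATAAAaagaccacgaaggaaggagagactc

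The TATA box was present in 6 of 7 inner root sheath promoters and 5 of 9 hair promoters, against 8.94% of the promoters of all 27025 genes in the table. In the remaining classes it was in 1 of 4 suprabasal, 2 of 8 other, 1 of 5 simple epithelial and 0 of 2 basal promoters. The LEF1/TCF core was in 5 of 9 hair promoters (Krt31, Krt32, Krt33b, Krt34 and Krt39) and 1 of 7 inner root sheath promoters, against 15.8% of all. This core was also in 1 of 4 suprabasal (Krt2) and 1 of 8 other promoters (Krt76), and in 0 of 5 simple epithelial and 0 of 2 basal promoters. In Krt31, Krt32, Krt33b and Krt34 a match began 240 to 247 bases before the start, and Krt34 had a second match at 133 bases. The GATA site was in 4 of 7 inner root sheath promoters (Krt25, Krt27, Krt71 and Krt73) and 0 of 9 hair promoters, against 11.4% of all. It was also in 2 of 4 suprabasal promoters (Krt10 and Krt2) and 2 of 5 simple epithelial promoters (Krt8 and Krt20), so it is not particular to the inner root sheath. These genes are paralogs with related sequence, and a match describes letters, not binding.

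Hair shaft keratins varied widely in the size of their differences. Of 15 genes 11 were tested, 10 lower and 1 higher in the labelled KO tumours, with a median of -2.58. Of the 11, 5 passed the filter through the labelled WT tumours alone. The median was -4.30 without labelled WT replicate 3 and -1.73 without labelled WT replicate 2. The 6 hair keratins above background on all 6 arrays had a median of -0.95. Krt35, an early hair cortex keratin, read -5.88, -0.90 and -4.71 in labelled KO replicates 1, 2 and 3, against 1.81, 3.60 and -1.58 in labelled WT replicates 1, 2 and 3. Labelled KO replicate 2 lay above labelled WT replicate 3, and the difference was -5.11 (SE 1.66, limma adjusted p = 0.296). Krt33a and Krt33b, hair cortex paralogs, differed by -5.62 (limma adjusted p = 0.347) and -5.18 (limma adjusted p = 0.349). In each of them labelled KO replicates 1 and 3 read -6.20 to -6.05, below background, and replicate 2 read -0.15 in Krt33a and -0.64 in Krt33b.

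Krt34, Krt31 and Krt86, also of the hair cortex, differed by -4.42, -2.89 and -2.58, each with labelled KO replicate 2 above labelled WT replicate 3. Krt36 had the smallest p among hair keratins. It read -2.31, -2.06 and -2.10 in the labelled KO tumours, against -1.25, 0.30 and -1.14 in the labelled WT tumours, with no overlap (difference -1.46, SE 0.41, limma adjusted p = 0.254). A dimmer Krt36 probe, well above background on no array, differed by 1.68, with no overlap in the opposite direction. Krt82 and Krt87 were not tested, and each was highest in labelled WT replicate 2. Krt40 was above background in 1 labelled WT tumour, and Krt39 on no array.

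Krt85, Krt84 and Krt81 had the smallest ranges of the tested hair keratins. Krt85, a keratin of the hair matrix, read 3.32, 3.38 and 3.64 in the labelled KO tumours, against 3.08, 3.63 and 2.84 in the labelled WT tumours, and its range over the 6 tumours was 0.80, where that of Krt33a was 10.39. The ranges of Krt84 and Krt81 were 1.38 and 1.84. Their differences were 0.26 for Krt85, -0.025 for Krt84 and -0.44 for Krt81, with limma adjusted p = 0.684, 0.984 and 0.724. The probes of Krt81 and Krt87 resemble each other. Whether the signals of Krt81, Krt85 and Krt87 are fully separate was not tested. Below, capitals mark the bases of the Krt87 probe that differ from the Krt81 probe where the sequences align without gaps.
Krt81 probe: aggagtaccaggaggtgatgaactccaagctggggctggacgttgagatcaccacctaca
Krt87 probe: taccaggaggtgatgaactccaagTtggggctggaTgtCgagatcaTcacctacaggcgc

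The Krt87 probe matched the Krt81 probe at 51 of 55 aligned bases. The Krt81 and Krt87 probes shared an unbroken stretch of 24 bases, the longest between probes of different keratins, and no other pair of the 2261 compared shared 20 or more. The Krt81 probe lies at chr15:101290583-101290642 and the Krt87 probe at chr15:101263556-101263615 (mm9).

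The 2 probes of Krt32, a hair cuticle keratin, ranked the tumours differently. The brighter, at chr11:99947991-99948050 (mm9), read -0.18, -6.03 and 1.24 in labelled KO replicates 1, 2 and 3, against 2.32, -2.66 and 0.64 in labelled WT replicates 1, 2 and 3, with replicate 2 lowest in each genotype. This is the tumour order of Krt13 and not of the hair keratins. The dimmer probe read -3.09, -3.32 and -3.65 in the labelled KO tumours, against -0.94, 0.79 and -4.29 in the labelled WT tumours, which is the order of the hair keratins in the labelled WT tumours. The differences, -1.76 and -1.87, were alike and hid the disagreement. The sequence of the brighter probe is shown because its signal goes against its class.
Krt32 brighter probe: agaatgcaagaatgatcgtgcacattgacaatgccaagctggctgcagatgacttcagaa

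Keratins of other epithelia followed 3 separate patterns. Krt13, the type I keratin of mucosal epithelia, read 4.82, -1.89 and 6.41 in the labelled KO tumours, against 7.00, 1.60 and 5.53 in the labelled WT tumours. In each genotype replicate 2 was far below the others, and the difference of -1.60 (SE 2.34, limma adjusted p = 0.813) turned to 0.90 without labelled KO replicate 2. A second Krt13 probe gave -1.69. Krt4, its mucosal type II partner, read 0.73, -4.81 and -0.56 in the labelled KO tumours, against 1.66, -2.61 and -2.89 in the labelled WT tumours, which differ by -0.27 (SE 1.73, limma adjusted p = 0.966). The Krt4 difference turned to 1.37 without labelled KO replicate 2 and to 1.204 without labelled WT replicate 1. Krt76, a keratin of the palate, was also lowest in replicate 2 of each genotype. The replicates with low Krt13 and Krt76 were those with the highest inner root sheath keratins of their genotype.

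Krt79, a keratin of the hair canal and sebaceous duct, read 4.60, 6.89 and 3.35 in the labelled KO tumours, against 6.71, 8.56 and 6.88 in the labelled WT tumours, with a difference of -2.44 (SE 0.93, limma adjusted p = 0.348). Labelled KO replicate 2 overlapped the labelled WT tumours. Krt12, known from the cornea, differed by -2.78 (SE 1.16, limma adjusted p = 0.377), and its dimmer probe by -1.18. Krt75, of the companion layer beside the inner root sheath, had a difference of the opposite sign to the inner root sheath keratins. It read 3.49, 3.67 and 3.81 in the labelled KO tumours, against 2.24, 4.46 and 0.83 in the labelled WT tumours, which differ by 1.15 (SE 0.83, limma adjusted p = 0.607) with overlap. Its labelled WT tumours had the order of the inner root sheath keratins. Krt24 differed by 0.32 (SE 0.15, limma adjusted p = 0.422) without overlap and Krt222 by 0.58 (SE 0.27, limma adjusted p = 0.423). The values for Krt42 and Krt9 were 0.27 and -1.50.

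Type I keratin genes lie on chromosome 11 and type II genes, with the type I gene Krt18, on chromosome 15. The median difference of the tested genes was -1.55 over 22 genes on chromosome 11 and -0.27 over 19 genes on chromosome 15. Krt85, whose probe has no position here, is in neither count. The chromosomes differ in class content, with 7 tested hair keratins on chromosome 11 (median -4.42) and 3 on chromosome 15 (median -0.44). Tested suprabasal keratins numbered 1 on chromosome 11 and 5 on chromosome 15. The part of class content in this contrast was not tested. Neighbours in a cluster could differ widely. On chromosome 15 the probe of Krt71 (-6.56) lies 26.9 kb from that of Krt5 (0.14). On chromosome 11 the probe of Krt28 (-5.45) lies 20.5 kb from that of Krt10 (0.56), which is beside the run of Krt25 to Krt28. Inner root sheath keratins were lower in 3 of 3 tested genes on chromosome 11 and 2 of 2 on chromosome 15.

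**Figure D4:**
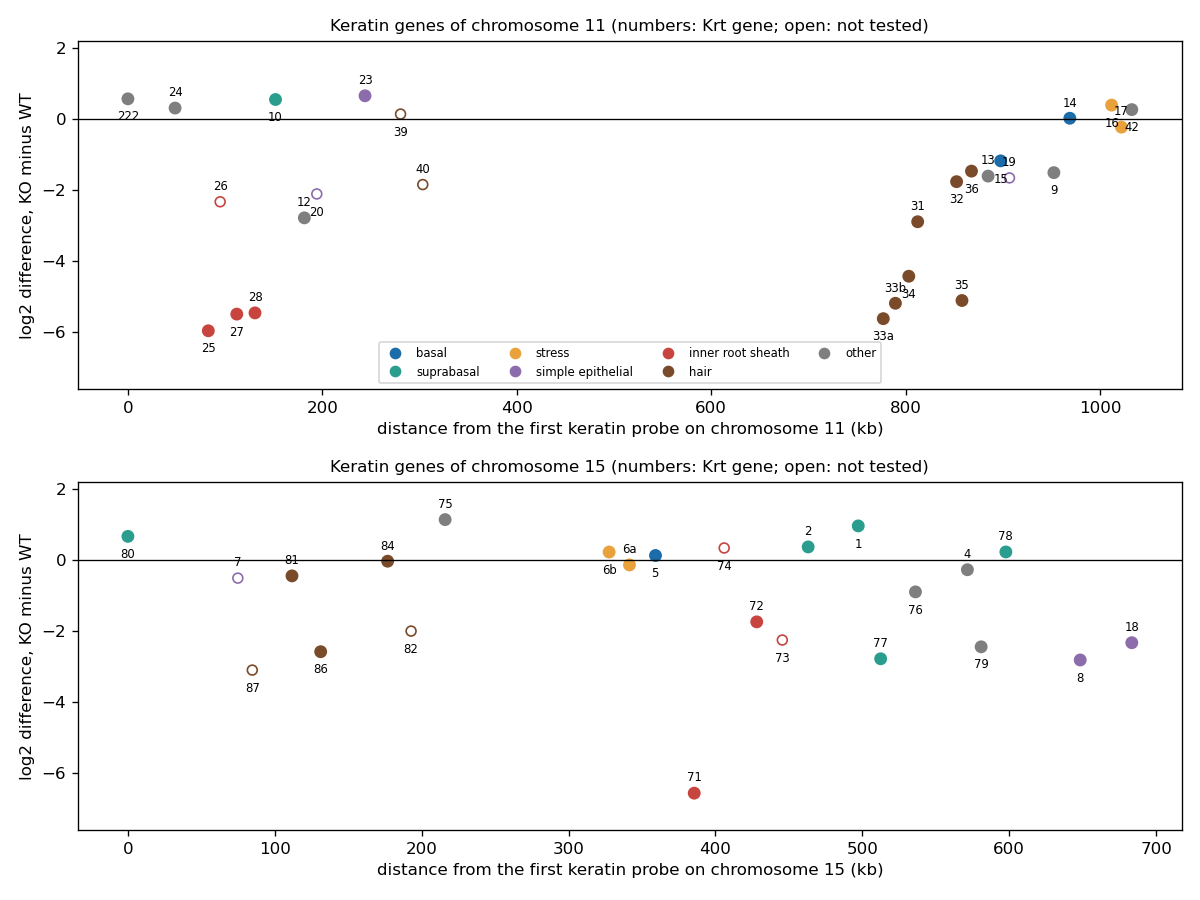
Difference of each keratin, labelled KO minus labelled WT on the log2 scale, against the distance of its probe from the first keratin probe on chromosome 11 (upper panel) or 15 (lower panel), in kb. Filled points were tested and open points were not; Krt85 is not drawn. Krt71 at -6.56 stands next to Krt5 at 0.14, and Krt28 at -5.45 next to Krt10 at 0.56.

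Several marker lists of other skin structures were, like the hair follicle keratins, lower in the labelled KO tumours, but not all shared their tumour order. The inner root sheath keratins averaged -4.20, -1.12 and -3.77 in labelled KO replicates 1, 2 and 3, against 2.43, 4.35 and -0.76 in labelled WT replicates 1, 2 and 3. Melanocyte markers, 6 of 8 tested, averaged -2.78, -0.53 and -3.80 in the labelled KO tumours, against -1.57, -0.54 and -2.24 in the labelled WT tumours, with the same tumour highest in each genotype. Of these markers Oca2 was not well above background on any array. Sebaceous gland markers, 10 of 11 tested, averaged -0.07, 0.09 and -0.80 in the labelled KO tumours, against 1.48, 3.65 and 0.47 in the labelled WT tumours. Replicate 2 was again the highest tumour of each genotype, and 9 of 10 markers were lower, with a median of -2.66.

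Skeletal muscle markers, all 14 tested, averaged -3.75, -3.98 and -3.61 in labelled KO replicates 1, 2 and 3. They averaged -0.74, 3.77 and 0.64 in labelled WT replicates 1, 2 and 3, and 7 of the 14 were above background in no labelled KO tumour. Adipocyte markers, 9 of 10 tested, averaged -2.11, -2.38 and -2.08 in the labelled KO tumours, against 1.08, 1.81 and 0.62 in the labelled WT tumours. In both lists labelled KO replicate 2 was the lowest labelled KO tumour, where it was the highest for the inner root sheath keratins. Of the adipocyte markers, 5 of 10 were above background in no labelled KO tumour. Fibroblast, leukocyte and endothelial markers had medians of 0.41, 0.25 and -0.29, and proliferation markers one of -0.36. Fibroblast markers averaged 3.31, 3.90 and 2.79 in the labelled KO tumours, against 3.62, 3.97 and 2.44 in the labelled WT tumours. Their highest tumour in each genotype was that of the inner root sheath keratins, and so was that of the leukocyte markers. Against the fibroblast median, Mfap5, a microfibril protein named after its value was seen, had a measured difference of -3.73 (limma adjusted p = 0.020). By the bound, Mfap5 was at least 9.68-fold lower in the labelled KO tumours. At a limma adjusted p under 0.05, 1 muscle marker, 3 adipocyte markers and 1 fibroblast marker (Mfap5) were called, beside 0.162% of all features. Each of these called markers was above background in no labelled KO tumour. They passed the filter through the labelled WT tumours alone, which by itself favours a lower labelled KO mean. The part of these cell types in the keratin differences was not tested.

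**Figure D5:**
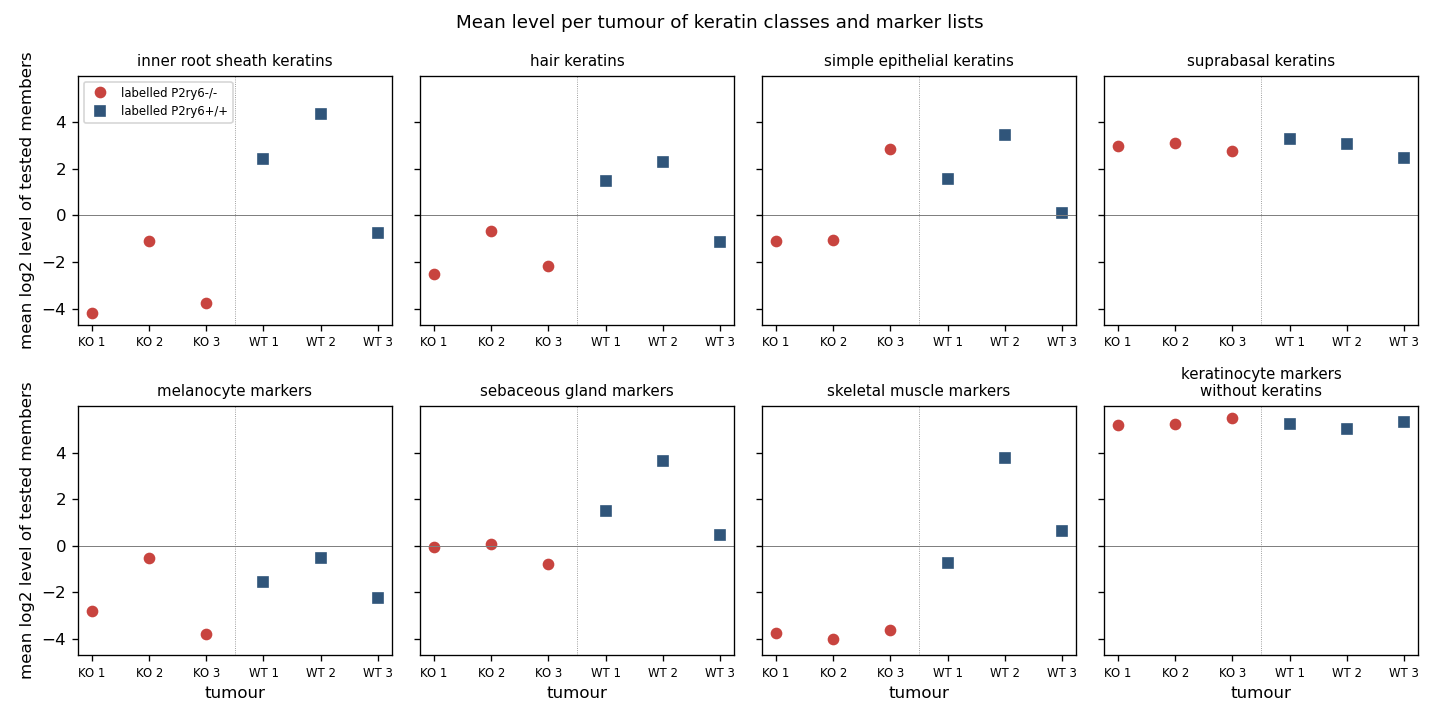
Mean log2 level of the tested members of 4 keratin classes (upper row) and 4 marker lists (lower row) in each tumour, labelled KO (red circles) left and labelled WT (blue squares) right. Labelled KO replicate 2 is the highest labelled KO tumour for inner root sheath, hair and suprabasal keratins and for melanocyte and sebaceous gland markers. Keratinocyte markers other than keratins lie between 4.997 and 5.50 in all 6 tumours.

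Among tested genes of proteins that bind keratins or control keratin genes, 0 were called by RNA level, where 0.162% of all features were called. Of 16 epidermal partners, all tested, 11 were higher and 5 lower in the labelled KO tumours, with a median of 0.17. Tgm5, a transglutaminase that crosslinks the cornified envelope, differed by 0.96 (SE 0.22, limma adjusted p = 0.201) without overlap. Evpl (envoplakin) and Jup (plakoglobin), which link keratins to envelope and desmosome, differed by 0.49 and 0.56 (limma adjusted p = 0.351 and 0.355), also without overlap. Of 16 hair follicle partners 13 were tested, 5 higher and 8 lower, with a median of -0.03. S100a3, a calcium-binding protein of the hair cuticle, read -0.39, -0.95 and -0.20 in the labelled KO tumours, against 2.49, 4.58 and 0.32 in the labelled WT tumours (difference -2.98, SE 0.98, limma adjusted p = 0.299). Lef1, the factor of the LEF1/TCF core, differed by -1.59 (SE 0.68, limma adjusted p = 0.384), and Padi1, a peptidylarginine deiminase, by 1.095 (SE 0.48, limma adjusted p = 0.398). Gata3, named after its value was seen, differed by 0.56 (SE 0.30, limma adjusted p = 0.486), with a sign opposite to that of Lef1.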

How the data were processed

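RNA of 6 mouse skin tumours was labelled with Cy3 and hybridised to one-colour Agilent arrays, 0.2 ug per sample per the labels' protocols. The authors deposited scanner output with an intensity for each spot. The submitters' processing notes name Agilent Feature Extraction 10.7.1.1. Per the file headers, background and a spatial trend had been removed from this signal, and dim spots carry stand-in values. The authors also deposited a log2 value table, made in a way that no source used here states. Each column had a median of 4.969, and the columns correlated with the log2 processed signal of the same array at 0.9994 to 0.99997 over 56596 probes. Probe coordinates are on mm9, per the file headers. One probe sequence is not reported here.

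Levels are log2 processed signal less the 75th percentile of non-control probes on that array. Flagged spots (68 to 184 per array) were left out, spots of a probe were averaged, and 9 probes lost on an array were dropped. Probes well above background throughout the arrays of either genotype were tested, and the brightest such probe stood for a gene, which left 19742 features. Names came from RefSeq (GRCm38.p6). Genotypes were compared in limma 3.58.1 (R 4.3.3), two-sided, with Benjamini-Hochberg adjustment over all features. With 3 against 3 samples an exact permutation test cannot go below 0.1. The fit was tested on simulated data. All arrays shared 1 slide and 1 scan.

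The members, classes and gene lists were chosen with earlier results of these data known. Genes named are P2ry6, 15 keratins of known epidermal, simple and mucosal use, up to 4 of each class with the smallest p, and up to 3 of each partner list; other keratins with values were named after their values were seen. Alternatives were normexp (offset 50), quantile normalization, median scaling, no filter, a filter requiring all 6 arrays above background, probe means, trended robust eBayes, array weights, the value table, blocks for replicate number or slide column, and leaving out each sample.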

Additional observations from a re-analysis of the deposited data

How the results depend on the processing

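Under all 17 alternatives 0 keratins passed limma's adjusted threshold, and the adjusted p of the 29 named and tested keratins was 0.071 or more. The looser count (2-fold, unadjusted p under 0.05) was 6 with normexp, 2 with probes above background on all 6 arrays, 5 without labelled KO replicate 1 and 5 to 13 over the samples left out. With probes above background on all 6 arrays the median was -0.95 for hair keratins, 0.27 for other keratins and 0.14 for all keratins, since fewer genes were tested, and inner root sheath keratins gave no value. With the slide column as a block the medians of other and all keratins were 0.099 and -0.26, and those of Krt13 and Krt4 turned to 0.0023 and 0.31; the cause was not tested. Leaving out samples gave medians of -4.30 to -1.73 for hair, -1.19 to 0.27 for other (0.27 without labelled KO replicate 2, -0.10 without labelled WT replicate 1) and -1.22 to -0.11 for all keratins. Krt14, at 0.03, turned to -0.012 with normexp, -0.098 with quantile normalization, -0.013 with median scaling, -0.10 in the series value table and lay between -0.058 and 0.085 over samples left out. Krt4 turned to 0.0024 with normexp and ranged from -1.40 to 1.37 over samples left out, Krt13 from -3.25 to 0.90 and Krt6a from -0.33 to 0.069. The other 25 named keratins kept their sign in all alternatives that gave a value. With the replicate number as a block the loose count was 13 and the inner root sheath median -5.49. Deviations of same-numbered samples correlated at 0.06, 0.26 and 0.14, and those of differently numbered samples at -0.20 to 0.097. Each labelled KO sample correlated most with the labelled WT sample of its own number. With 3 samples per genotype these values do not settle whether the numbers mark pairs, and they were not taken as pairs. The stress and basal medians, close to 0, were negative without labelled KO replicate 3 (-0.017 and -0.058) and without labelled WT replicate 2 (-0.0093 and -0.036).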
